A study of Caenorhabditis elegans with 2 samples.

Results

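The 10 genes described here encode transcription factors that set the fates of early embryonic lineages in Caenorhabditis elegans: skn-1 and pal-1, the GATA-type genes end-3, end-1, elt-7 and elt-2 of the endoderm, pha-4 of the pharynx, hlh-1 of body wall muscle, and elt-1 and lin-26 of the epidermis. They were chosen by name, with earlier results of these data known. They are 10 of 19973 protein-coding genes on the nuclear chromosomes. The data map where the homeodomain protein COG-1, of the NK6 family, was found on chromatin, by chromatin immunoprecipitation with sequencing, in 1 group of 2 biological replicates. The chromatin came from whole mid-embryos of hermaphrodite strain OP541, collected 3 h after egg bleaching; the strain carries unc-119(tm4063) and the transgene wgIs541, from which COG-1 is made with a C-terminal GFP-FLAG tag, and the antibody recognised GFP. The promoter that drives the transgene is not given in the sources used here, and neither an untagged nor an input library was analysed here. Because whole embryos were used, a few cells with much COG-1 at a site and many cells with little cannot be told apart.

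In the nematode embryo, maternal factors act first. SKN-1, a bZIP-related protein, specifies the EMS blastomere, from which endoderm and mesoderm descend, and PAL-1, a caudal-type homeodomain protein, specifies the posterior blastomeres C and D. Downstream of SKN-1, END-3 and END-1 commit the E blastomere to endoderm and activate ELT-7 and ELT-2, which maintain intestinal gene expression. PHA-4, a FoxA factor, gives pharyngeal cells their organ identity, HLH-1 is the MyoD-related factor of body wall muscle, ELT-1 specifies epidermal cells, and the zinc finger protein LIN-26 keeps them epidermal.

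For each gene, regions were taken whose summit (the position of highest signal) lay in the gene or up to 5 kb upstream of its start. The deposited lists were a pooled list of 22583 regions, lists of 21617 regions for replicate 1 and 20247 for replicate 2, and a list of 1841 regions that passed the irreproducible discovery rate (IDR) step. The first 3 are relaxed and also hold background. Signal and q-values are those of the authors' caller, signal is used only within a list, and rank 1 is the strongest region of a list. Regions at a q-value under 0.05 numbered 2976 in the pooled list, 2033 in replicate 1 and 3522 in replicate 2. The IDR list held the 1841 pooled regions of highest signal, so it could not be told from a cut by pooled signal alone. Both replicate lists held 99.6% of the IDR regions, and 84.4% passed a q-value of 0.05 in each replicate. The lists give no read depth, so the depth behind each value is unknown here.

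Of the 10 genes, 2 had an IDR region, skn-1 and end-3, against 15.3% of all protein-coding genes. With hlh-1 and elt-1, 4 of 10 had a pooled region at a q-value under 0.05, against 22.2% of all genes. Neither IDR region lay at the start of its gene. The skn-1 region was in an intron and the end-3 region was 64 bp upstream of another gene, aip-1. The DNA around the summits of these 5 pooled regions is shown because the results turn on them. Each sequence is the plus strand of ce11, read from RefSeq's WBcel235 assembly, with 100 bp to either side of the summit. In the end-3 sequence the bases inside aip-1 were left off. Capitals mark matches to any of 6 motifs searched on both strands: the homeodomain-type cores TAATTA and TTAATT, the GATA factor sites TGATAA and AGATAA, the E-box CACGTG, and the GA repeat GAGAGAG.
skn-1 intron, IDR region, chrIV:5657173-5657373: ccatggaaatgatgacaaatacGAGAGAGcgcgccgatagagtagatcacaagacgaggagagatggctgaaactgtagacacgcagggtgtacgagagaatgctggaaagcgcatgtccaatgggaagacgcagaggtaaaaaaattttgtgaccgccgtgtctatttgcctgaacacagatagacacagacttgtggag
end-3 upstream, IDR region, chrV:14012169-14012332: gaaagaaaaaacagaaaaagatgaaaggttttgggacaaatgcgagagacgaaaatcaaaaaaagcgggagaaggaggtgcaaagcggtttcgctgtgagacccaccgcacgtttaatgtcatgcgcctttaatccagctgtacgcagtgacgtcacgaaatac
hlh-1 upstream, chrII:4518345-4518545: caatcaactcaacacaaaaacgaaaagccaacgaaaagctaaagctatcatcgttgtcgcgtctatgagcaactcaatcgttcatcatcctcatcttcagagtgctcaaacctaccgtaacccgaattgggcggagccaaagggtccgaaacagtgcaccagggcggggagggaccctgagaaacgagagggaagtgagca
elt-1 intron, first region, chrIV:9617514-9617714: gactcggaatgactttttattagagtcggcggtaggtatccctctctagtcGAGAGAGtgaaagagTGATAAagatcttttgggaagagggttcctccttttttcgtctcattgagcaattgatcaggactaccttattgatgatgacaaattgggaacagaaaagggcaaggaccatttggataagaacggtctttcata
elt-1 intron, second region, chrIV:9618929-9619129: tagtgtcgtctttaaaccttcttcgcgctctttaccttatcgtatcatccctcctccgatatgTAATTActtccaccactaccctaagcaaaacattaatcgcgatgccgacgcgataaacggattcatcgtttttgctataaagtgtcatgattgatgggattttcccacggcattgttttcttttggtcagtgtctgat
The skn-1 sequence held GAGAGAG, 75 bp from its summit, and so did the first elt-1 sequence, 46 bp from its summit. The first elt-1 sequence also held TGATAA, 32 bp from its summit, and the second held TAATTA, 34 bp from its summit. The end-3 and hlh-1 sequences held none of the 6, and no matches overlapped each other. In windows reaching 100 bp to either side of the summit, GAGAGAG was in 2 of these 5 regions, against 23.2% of the 1841 IDR regions and 7.92% of the 22583 pooled regions. TGATAA was in 1 of the 5, against 7.60% and 16.0%, and TAATTA in 1, against 6.57% and 12.4%. TTAATT and also AGATAA and CACGTG were in none of the 5, against 17.9%, 7.93% and 4.35% of the IDR regions and 31.6%, 11.8% and 3.47% of the pooled regions. The GC content was 48.3% at skn-1, 44.3% at end-3 (the bases left off included), 50.2% at hlh-1 and 41.8% at both elt-1 regions, against a median of 44.8% over the IDR regions and 35.3% over the pooled regions. A match is a description of the letters and does not show that a factor bound there.

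**Figure D1:**
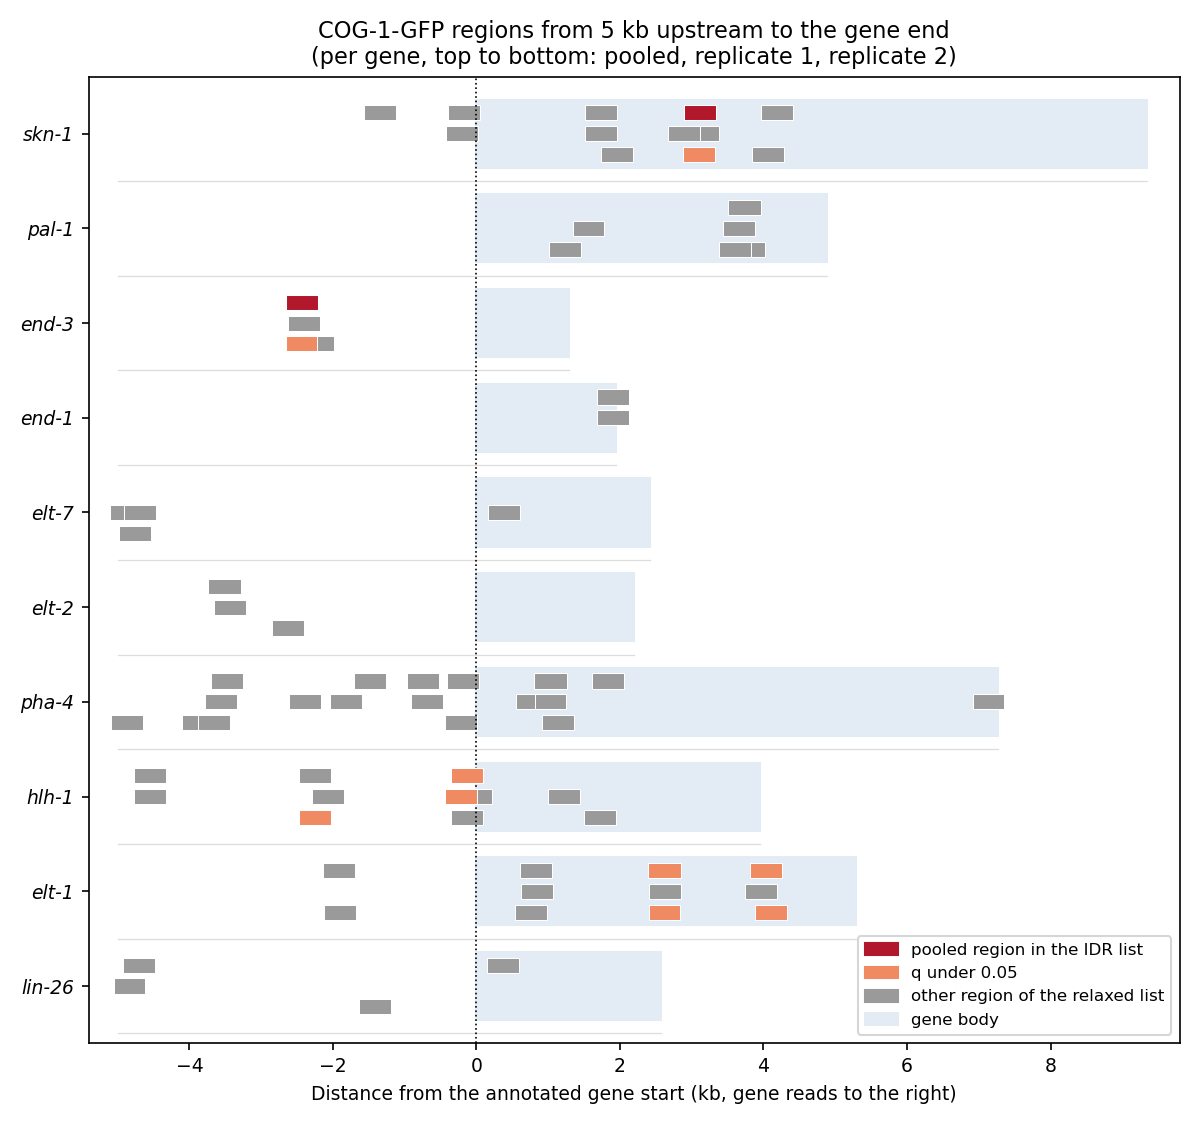
Regions at the 10 genes by distance from the gene start in kb, with the pooled, replicate 1 and replicate 2 lists from top to bottom for each gene, the gene body shaded, and bars drawn over the region width. The 2 IDR regions lie inside skn-1 and upstream of end-3, and in no gene is a region at q under 0.05 in both replicates at the same place.

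skn-1 (WBGene00004804, IV, 5651039 to 5660384, minus strand) had 5 pooled regions, and its strongest was an IDR region at IV, 5657048 to 5657497. The signal was 90.7 (rank 1371, −log10 q 3.45) in the pooled list. Replicate 1 had a signal of 32.7 there (rank 2318, −log10 q 1.07) and replicate 2 had 54.5 (rank 1299, −log10 q 3.51). The values 3.45 and 3.51 are the highest −log10 q of their lists, and the pooled region of rank 13 also has 3.45. A q-value of 0.05 corresponds to a −log10 q of 1.30, so replicate 2 alone passed it, although the replicate summits lay only 42 and 4 bp from the pooled one. The summit was 3111 bp downstream of the start of the transcript T19E7.2a, in an intron, and 1668 bp upstream of the start of transcript T19E7.2c. The starts of T19E7.2b and T19E7.2d lay 4044 and 4633 bp downstream of the summit. The non-coding RNA gene T19E7.26 started 45 bp from the summit. No other protein-coding gene had this summit in its window. The second skn-1 region, 1737 bp inside the gene, had rank 6294 in the pooled list, 3807 in replicate 1 and 11220 in replicate 2. The other 3 lay 4188 bp inside the gene and 171 and 1344 bp upstream, with pooled ranks from 17005 to 20232, and each was found in at most 1 replicate.

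pal-1 (WBGene00003912, III, 4804688 to 4809576, minus strand) had 1 pooled region, in an intron 3734 bp inside the gene, which was in both replicate lists. It had a pooled signal of 56.5 (rank 3205, −log10 q 1.17). Replicate 1 had rank 3217 (−log10 q 0.66) and replicate 2 rank 4072 (−log10 q 1.03). None of the 3 passed a q-value of 0.05, although both replicate summits lay within 79 bp of the pooled one. The start of metl-5, 2835 bp from the pooled summit, was nearer than the pal-1 gene start. The start of transcript C38D4.6c of pal-1 was nearer still, at 2252 bp. Replicate 1 also had a region 1562 bp inside the gene at rank 11729, and replicate 2 had regions 3599 and 1233 bp inside it at ranks 10087 and 19963. The nearest IDR summit was 52397 bp from the pal-1 start.

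Among the endoderm genes, end-3 (WBGene00001311, V, 14014695 to 14015980, plus strand) had the IDR region at V, 14012044 to 14012493. The signal was 87.5 (rank 1476, −log10 q 2.99) in the pooled list, 30.0 in replicate 1 (rank 2854, −log10 q 0.77) and 53.1 in replicate 2 (rank 1359, −log10 q 3.51). As at skn-1, replicate 2 alone passed a q-value of 0.05. The summit lay 2426 bp upstream of end-3 but 64 bp upstream of the start of aip-1, which encodes a relative of an arsenite-inducible RNA-associated protein, and 217 bp upstream of ddx-17, a DEAD-box helicase gene. By the nearest gene start the region belonged to aip-1, and it was the only pooled region in the end-3 window.

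The other endoderm genes had no IDR region and no region at a q-value under 0.05 in any list. end-1 (WBGene00001310, V, 13985128 to 13987074, plus strand) is the close relative of end-3 on the same chromosome. Its 1 pooled region, of rank 14316 (−log10 q 0.06), lay at the far end of the gene in untranslated exon sequence, with rank 10732 in replicate 1 and no counterpart in replicate 2. elt-2 (WBGene00001250, X, 10481240 to 10483441, plus strand) also had 1 pooled region, 3508 bp upstream in untranslated exon sequence of C39B10.7, with rank 12032 in the pooled list and 5489 in replicate 1. Replicate 2 had its 1 region in this window elsewhere, 2620 bp upstream, at rank 16469. elt-7 (WBGene00015981, V, 4770670 to 4773086, plus strand) had no pooled region. Replicate 1 listed 3 regions there, of ranks 8214, 12910 and 14974, and replicate 2 listed 1 of rank 14432, with −log10 q of at most 0.17. The nearest IDR summits were 17535 bp from the end-1 start, 43410 bp from elt-2 and 39105 bp from elt-7.

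pha-4 (WBGene00004013, V, 20753052 to 20760317, plus strand) had the most pooled regions of the 10 genes, 6, but none at a q-value under 0.05 in any list. The strongest lay in an intron 1031 bp inside the gene, with a pooled signal of 51.7 (rank 3778, −log10 q 0.85). It had rank 5181 in replicate 1 and 6081 in replicate 2. The strongest replicate 1 region in the window was another, 772 bp inside the gene, at rank 3798 (−log10 q 0.51). A region 3479 bp upstream was also in both replicate lists, at ranks 6810 (pooled), 11723 and 12710. A region 191 bp upstream of the start was in replicate 2 alone, at rank 4201 (−log10 q 0.96), and the region 746 bp upstream was in replicate 1 alone, at rank 7931. The remaining 2, of pooled ranks 19559 and 20599, were in neither replicate list.

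hlh-1 (WBGene00001948, II, 4518574 to 4522528, plus strand) was the 1 gene of the 10 with a region at a q-value under 0.05 close to its start, and its regions stood at different ranks in the replicates. The region lay at II, 4518220 to 4518669, with its summit 129 bp upstream of the start, and had a pooled signal of 61.8 (rank 2739, −log10 q 1.52). In replicate 1 it had a signal of 40.1 (rank 1452, −log10 q 1.85), but in replicate 2 it had 22.6 (rank 7304, −log10 q 0.36). The order was the opposite at the region 2245 bp upstream, which had rank 3201 (−log10 q 1.52) in replicate 2 and 16726 (−log10 q 0.04) in replicate 1, and rank 7349 in the pooled list. Each replicate thus had 1 region at a q-value under 0.05 upstream of hlh-1, at a different place. The first region was 129 bp upstream of the transcript B0304.1a.2 and 618 to 622 bp upstream of the starts of the other 3 transcripts. The remaining pooled region, 4550 bp upstream at rank 15290, was in a coding exon of cyp-23A1, a cytochrome P450 gene.

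elt-1 (WBGene00001249, IV, 9614995 to 9620280, plus strand) had 2 regions at a q-value under 0.05, both in introns and both past the end of the IDR list (rank 1841). The first, at IV, 9617389 to 9617838, had a pooled signal of 69.6 (rank 2236, −log10 q 2.08). It had a signal of 23.6 in replicate 1 (rank 5614, −log10 q 0.30) and 39.4 in replicate 2 (rank 2416, −log10 q 2.32). The second, at IV, 9618804 to 9619253, had a pooled signal of 67.9 (rank 2334, −log10 q 2.00). It had 27.4 in replicate 1 (rank 3642, −log10 q 0.54) and 42.1 in replicate 2 (rank 2137, −log10 q 3.15). Replicate 2 alone passed at both. The second summit lay 309 bp upstream of the start of W09C2.1e, the most downstream of the 6 transcript starts. A piRNA gene, 21ur-15550, started 82 bp from the first and 1497 bp from the second. The start of W09C2.7 was nearer to the second summit (3343 bp) than the elt-1 gene start (4034 bp). By the nearest coding gene start alone, elt-1 thus had 1 region at a q-value under 0.05. Another intronic region, 833 bp inside the gene, was in both replicate lists at ranks 4435 (pooled), 10272 and 5055.

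lin-26 (WBGene00003012, II, 7682198 to 7684764, plus strand) had 2 weak pooled regions, of ranks 10479 and 12074. The stronger lay 4704 bp upstream in an intron of lir-1, a lin-26-related gene, and was in replicate 1 alone. The snoRNA gene F18A1.11 started 172 bp from its summit. The weaker, 375 bp inside the gene, was in neither replicate list. Replicate 2 had its 1 region in this window elsewhere, 1414 bp upstream, at rank 11809. Beyond the 5 kb limit, an IDR region at II, 7676438 to 7676887 lay 5535 bp upstream, also in an intron of lir-1, with a pooled signal of 89.6 (rank 1398), rank 2664 in replicate 1 and rank 1049 in replicate 2. The next pooled regions beyond the limit at the other 9 genes lay from 5073 bp (skn-1) to 23468 bp (elt-2) upstream, with ranks from 3387 to 19021.

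**Figure D2:**
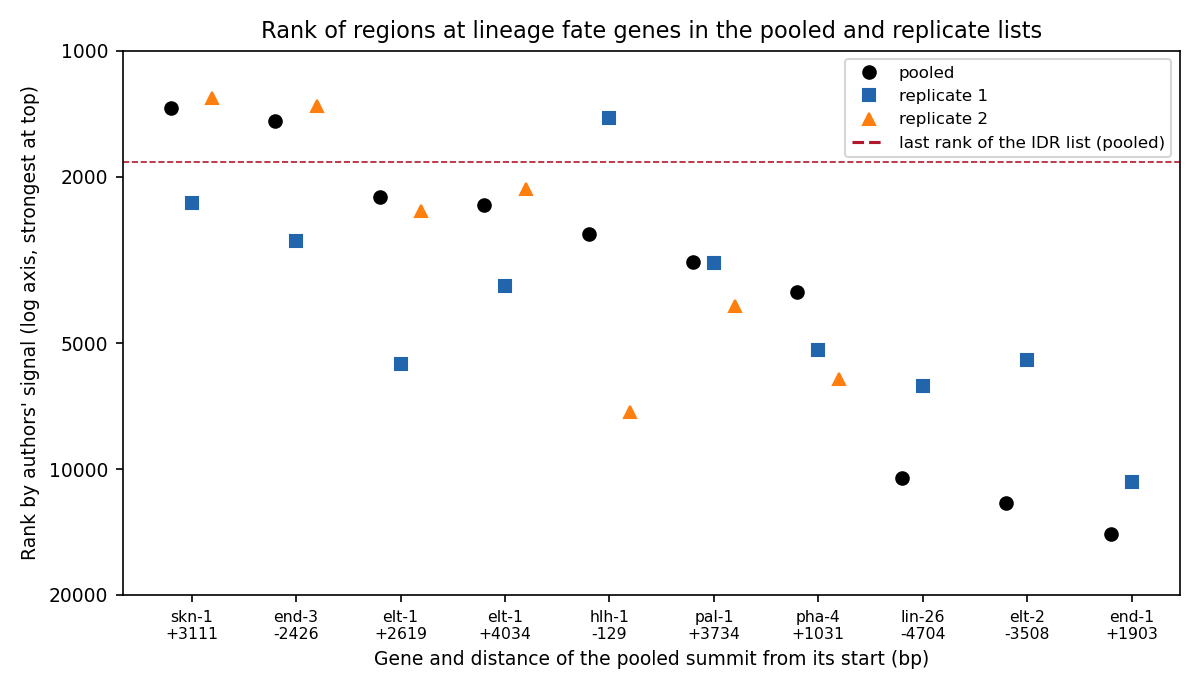
Rank by the authors' signal (log axis, strongest at the top) of each gene's strongest pooled region and of every pooled region at q under 0.05, in the pooled, replicate 1 and replicate 2 lists, whose lengths differ. A missing symbol means no region of that replicate at the summit, and the dashed line is pooled rank 1841, the end of the IDR list; hlh-1 has its replicates at ranks 1452 and 7304.

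The 24 pooled regions of the 10 genes lay upstream (13), in introns of the gene (10) or in untranslated exon sequence (1), and none was in a coding exon of its own gene. With other genes counted, 1 of 24 summits (4.17%) was in a coding exon, the one in cyp-23A1, against 8.59% of all pooled and 0.923% of all IDR summits. Both replicate lists held 11 of the 24 (45.8%), against 38.8% of all pooled regions, and 4 were in neither. None was within 500 bp of a tRNA gene. Of the 5 at a pooled q-value under 0.05, 4 passed in replicate 2 alone and 1, at hlh-1, in replicate 1 alone. Over all 2976 such regions, 57.8% passed in both replicates, 32.6% in replicate 2 alone and 6.25% in replicate 1 alone. Both IDR regions of the 10 genes were of the kind that passed in replicate 2 alone, which made up 14.6% of the IDR list and 28.0% of its 921 regions of lowest signal.

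The shares of the 10 genes with a region are to be read against all protein-coding genes. An IDR region was in the window of 2 of 10 genes, against 15.3% of all 19973 genes, which is near the background. A pooled region at a q-value under 0.05 was in the window of 4 of 10, against 22.2%. Any pooled region was in 9 of 10 windows against 71.1%, and a pooled region present in both replicate lists was in 6 of 10 (skn-1, pal-1, end-3, pha-4, hlh-1 and elt-1) against 42.1%. A region that passed a q-value of 0.05 in each replicate was in 0 of 10 windows, against 13.9%. In replicate 1 on its own 1 gene (hlh-1) had a region at a q-value under 0.05, against 15.8% of all genes. In replicate 2 there were 4 (skn-1, end-3, hlh-1 and elt-1) against 24.7%. At hlh-1 this was the region 2245 bp upstream, while the pooled region that passed had a q-value of 0.435 in replicate 2. Among the 1841 regions of highest signal, replicate 1 had 1 gene (hlh-1) against 14.7% of all genes, and replicate 2 had 2 (skn-1 and end-3) against 15.4%. With a narrow window, from 1 kb upstream to 500 bp downstream of the start, no gene of the 10 had an IDR region, against 6.82% of all genes, and hlh-1 alone had a pooled region at a q-value under 0.05, against 10.4%. With 10 chosen genes these counts were not tested.

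**Figure D3:**
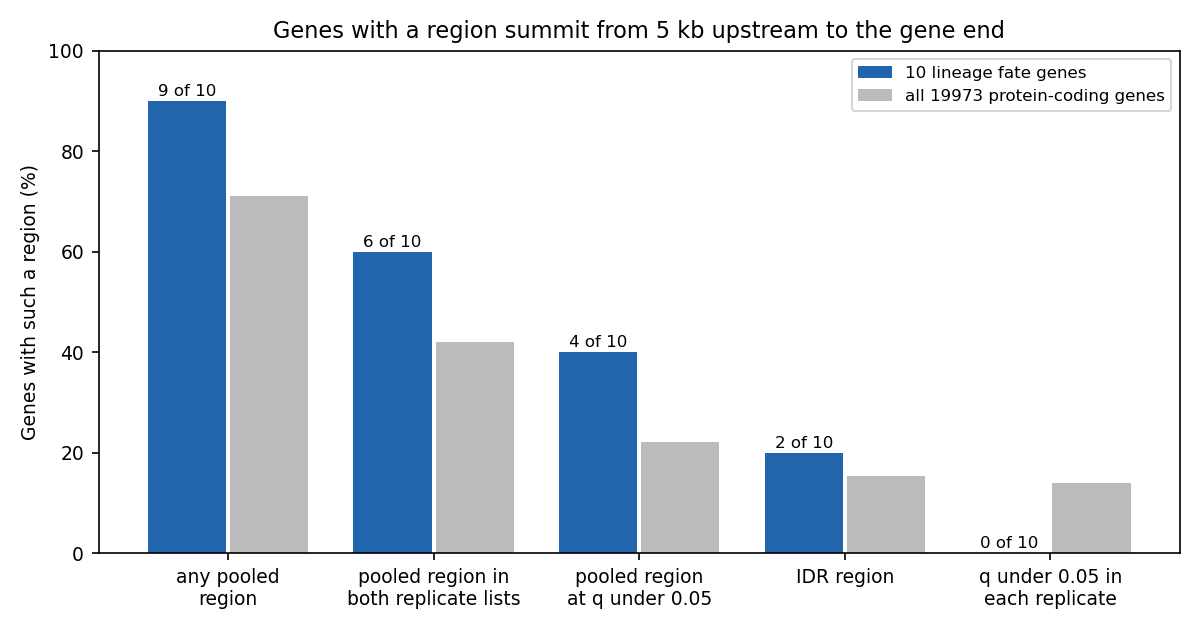
Percent of genes with a region summit from 5 kb upstream to the gene end, for the 10 lineage fate genes (blue) and all 19973 protein-coding genes (grey), by kind of region. The counts are 9, 6, 4, 2 and 0 of 10 from left to right, and the bars of all genes range from 71.1% to 13.9%.

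Long genes have more room for a region, and the windows of the 10 genes ranged from 6.29 kb (end-3) to 14.3 kb (skn-1), with a median of 8.26 kb against 7.03 kb over all genes. In windows under 7.5 kb, which are those of the 4 endoderm genes, 1 of 4 had an IDR region, against 12.0% of all genes of that class. From 7.5 to 10 kb (pal-1, hlh-1 and lin-26) it was 0 of 3 against 17.7%, and at 10 kb or more (skn-1, pha-4 and elt-1) 1 of 3 against 24.1%. For pooled regions at a q-value under 0.05 the counts in these classes were 1 of 4 against 17.4%, 1 of 3 against 25.3% and 2 of 3 against 35.8%. For pooled regions in both replicate lists they were 1 of 4 against 33.7%, 2 of 3 against 46.9% and 3 of 3 against 66.4%. Any pooled region was in 3 of 4 windows against 63.2%, 3 of 3 against 77.9% and 3 of 3 against 90.3%. No window of the 10 held a region that passed in each replicate, against 10.8%, 16.0% and 22.2%. Per 10 kb of window, the 10 genes had 0.219 IDR regions against 0.216 over all genes, 0.548 pooled regions at a q-value under 0.05 against 0.335, and 2.63 pooled regions of any kind against 2.17. The strongest pooled region of the 10 windows had a median rank of 3491.5, against 10998 over all genes and 4941 over all genes with windows of 10 kb or more, with windows without a region counted as weakest. The skn-1 and end-3 regions were not among the strongest: 11.9% and 12.6% of all genes had a stronger region in their window. For elt-1, hlh-1, pal-1 and pha-4 this share was 18.0%, 21.0%, 23.5% and 26.2%, and for lin-26, elt-2 and end-1 it was 48.7%, 52.6% and 57.6%.

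**Figure D4:**
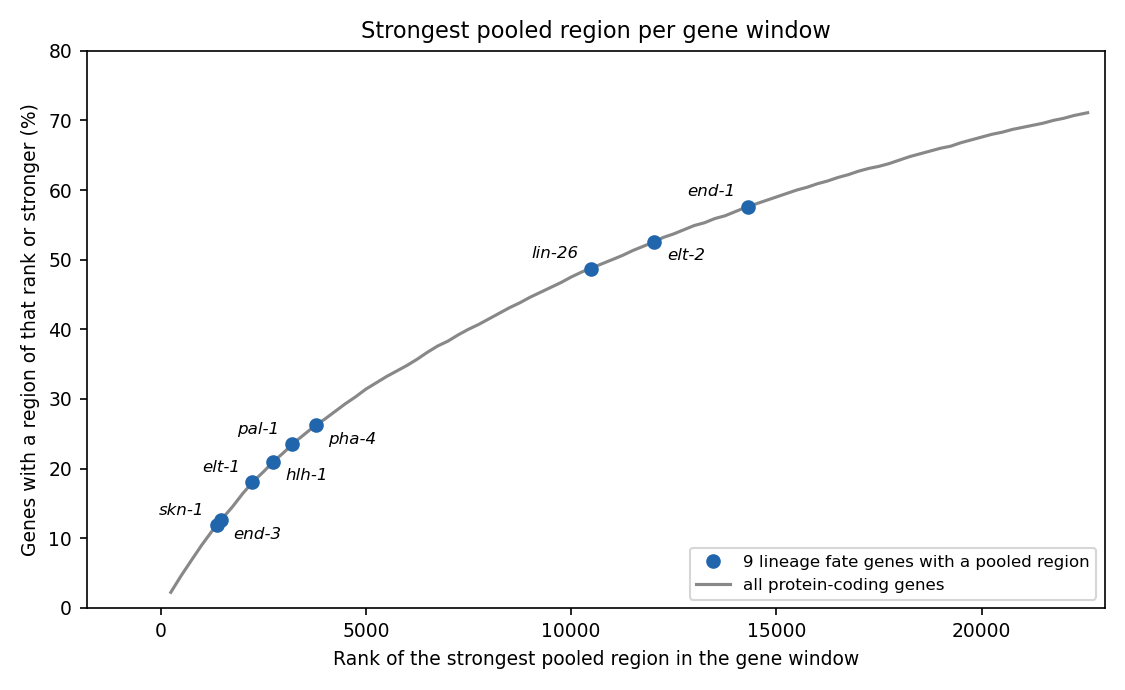
Percent of all protein-coding genes whose window held a pooled region of a given rank or stronger (line), with the 9 lineage fate genes that had a pooled region placed at the rank of their strongest (points). skn-1 and end-3 stand at 11.9% and 12.6%, and lin-26, elt-2 and end-1 near or past 50%; elt-7 had no pooled region.

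Other regulators of early fate were looked up in the same way. Of 32 such genes, 6 (18.8%) had an IDR region, against 15.3% of all genes and 17.7% of those with windows of 7.5 to 10 kb, the class that holds the median window of these genes (8.34 kb). A pooled region at a q-value under 0.05 was in the window of 10 (31.2%), against 22.2% of all genes and 25.3% of that class. The 4 of these with the strongest IDR region are described. sys-1, which encodes a β-catenin, had a region 4219 bp upstream at rank 13, whose nearest start was the histone gene his-68, and a second one 389 bp upstream at rank 1633. pop-1, the TCF gene, had regions 1046 bp inside the gene (rank 268) and 1284 bp upstream (rank 1771). lit-1, the Nemo-like kinase gene, had 3 intronic regions, the strongest at rank 624. The region of mex-1, a maternal CCCH zinc finger gene, at rank 134 was 192 bp upstream of W03C9.5. Among the Hox genes and their TALE cofactors, 2 of 10 had an IDR region, against 17.7% of genes with windows of 7.5 to 10 kb. A pooled region at a q-value under 0.05 was in the window of 5 of 10, against 25.3%. Their median window, 9.93 kb, lay close to the 10 kb edge of that class. Of genes with windows of 10 kb or more, the shares were 24.1% and 35.8%. The IDR regions were at ceh-20, a Pbx-type gene (851 bp upstream, rank 283), and nob-1, a posterior Hox gene (599 bp upstream, rank 933). The lists share nob-1 and php-3, and these values were not tested.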

How the data were processed

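The deposited files were region lists in narrowPeak format for ce11 and ce10, and the ce11 lists were used. The listing deposited with each sample says that relaxed lists came from alignments (single replicates, or both pooled) with a control alignment, and the IDR list from the relaxed lists. The aligner, caller, their versions and the IDR threshold are not given in the sources used here. Both the deposited signal value and the deposited q-value (on the −log10 scale, at most 3.45 in the pooled list) are the authors' values. Sequence was planned to be left out where it meets annotated UTR, and at end-3 only those bases were left off. Genes were those of Ensembl release 115 on WBcel235, whose sequence is that of ce11: 0 regions ran past a chromosome end, and 99.9% of annotated start codons read ATG in the RefSeq sequence. A region was given to every gene whose window held its summit, and a pooled region counted as present in a replicate when its summit lay in a region of that replicate. Background shares were computed over all protein-coding genes, with Python 3.11.15 and pandas 2.3.3, and assignment was tested on simulated regions. The genes named were the 10 fate genes whatever their values, nearer genes at their regions, and up to 4 genes with an IDR region per gene list. These genes and lists were chosen with earlier results of these data known. No test was run. Replicates are labelled biological replicates. Alternatives covered the window, gene assignment, thresholds, overlap and leaving out each replicate.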

Additional observations from a re-analysis of the deposited data

How the results depend on the processing

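The count of 2 genes and 2 regions in the IDR list depended on the window, the list and the replicate. It was 1 (skn-1) with a window reaching 2 kb upstream and 1 (skn-1) when regions went to the nearest coding gene start alone, since the end-3 region lies at aip-1. It was 0 in the narrow start window and 0 among the IDR regions of above-median signal. With replicate 2 left out, the 1841 strongest regions of replicate 1 gave 1 gene and 1 region (hlh-1), and with replicate 1 left out those of replicate 2 gave 2 of each (skn-1 and end-3), so leaving out a replicate gave 1 to 2. Genes with a pooled region at a q-value under 0.05 numbered 4. They numbered 3 (without end-3) with a window reaching 2 kb upstream, and likewise 3 by the nearest coding gene start alone. There was 1 in the narrow start window, and 1 (hlh-1, without replicate 2) to 4 (without replicate 1) when a replicate was left out. Without replicate 1, hlh-1 counted through its region 2245 bp upstream, which had a pooled q-value of 0.540. A q-value under 0.01 left 3 (skn-1, end-3 and elt-1). The 6 genes with a region in both replicate lists became 0 when the replicate regions had to pass a q-value of 0.05, and stayed at 6 with an overlap of 1 bp or a reciprocal overlap of 50%. With a window reaching 2 kb upstream they became 5, without end-3. Counting any overlap with the window, or leaving out regions near tRNA genes, changed none of the counts to which it was applied. No paired analysis was possible because both samples belong to 1 group. The depth of the libraries is unknown here, and the lower ranks of the relaxed lists have q-values close to 1.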

Other observations

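Genes that act downstream in each tissue were looked up with the same windows, in lists of 10. Of these, elt-3, nhr-25, unc-120, hnd-1 and ceh-22 were also among the other regulators of early fate. A pooled region at a q-value under 0.05 was in the window of 6 epidermal, 4 muscle, 2 intestinal and 2 pharyngeal genes, against 22.2% of all genes. Against 15.3% of all protein-coding genes, an IDR region was in the window of 3 epidermal, 3 muscle, 2 intestinal and 1 pharyngeal gene. The epidermal genes were dlg-1, which encodes a Discs large scaffold of cell junctions, with regions 4357 bp upstream (rank 350) and 715 bp inside the gene (rank 603), ajm-1, an apical junction gene, with regions 19443 bp inside the gene (rank 938) and 4874 bp upstream (rank 1807, with a tRNA gene within 500 bp), and vab-10, a spectraplakin gene (rank 1225). The epidermal windows had a median length of 10.9 kb, the muscle windows 12.1 kb, the pharyngeal windows 7.49 kb and the intestinal windows 7.27 kb, against 7.03 kb over all genes. Of all genes with windows of 10 kb or more, the class of the epidermal and muscle medians, 24.1% had an IDR region. A pooled region at a q-value under 0.05 was in the window of 35.8% of them. In windows under 7.5 kb, the class of the pharyngeal and intestinal medians, the shares were 12.0% and 17.4%. These counts were not tested. Of the muscle genes with an IDR region, lev-11, the tropomyosin gene, had an intronic one (rank 683). The others were mlc-1, a myosin light chain gene (rank 1040), and unc-54, the myosin heavy chain gene (rank 1297). In the unc-54 region the replicates stood at rank 5579 (replicate 1) and 678 (replicate 2). The intestinal genes were pgp-1, a P-glycoprotein gene (rank 750), whose region had a tRNA gene within 500 bp, and vha-6, a V-ATPase subunit gene (rank 1550). The pharyngeal gene with an IDR region was hlh-6, a bHLH gene of pharyngeal glands (rank 511). Its region lay 4763 bp upstream in an intron of dnj-20. At 7 of these regions the nearest coding gene start was that of another gene: mlc-2 for mlc-1, F11C3.1 for unc-54, VW02B12L.2 for vha-6, cul-6 for pgp-1, hal-3 for hlh-6, and C25A11.2 and F47E1.1 for the intronic and the upstream region of ajm-1.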
